A study of Homo sapiens with 4 samples.

Results

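The drug-metabolising enzymes of the cytochrome P450 families CYP1 to CYP4, the UGT2 glucuronosyltransferases, the SULT sulfotransferases and the glutathione S-transferases (GST) were followed in HepG2, an established human liver cancer line, before and during exposure to APRIL, a cytokine related to tumour necrosis factor. Members were the genes whose symbol is CYP with a single digit 1 to 4 and a letter, or begins with UGT2, SULT or GST, and that a probe set with exactly 1 symbol reads. UGT2B4 was left out by this rule. This gave 67 of the 19775 genes read on the array, through 122 probe sets: 4 genes of CYP1, 15 of CYP2, 4 of CYP3, 14 of CYP4, 4 of UGT2, 8 of SULT and 18 of GST. Of the 67, 59 were protein-coding, 6 were pseudogenes and 2 were antisense RNA genes, and 35 rested on 1 probe set. Some textbook enzymes, UGT2B7 among them, are not analysed here.

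There were 4 arrays of total RNA, 1 each at 0, 2, 6 and 12 h of 200 ng/ml APRIL, the 0 h cells being untreated. All cells were of this 1 line and had been kept without serum beforehand, for 24 h by the series' design text and overnight by the labels' protocols. The deposited log2 values are relative to each probe set's own median over the 4 arrays, so they hold differences between arrays and no expression level, and a gene that these cells do not express cannot be told from a stable one. Since each time has a single array and no untreated array of the same time, no replicate error or test can be given, and time in culture cannot be told apart from APRIL. A gene's ratio is the median over its probe sets of a later array minus the 0 h array, on the log2 scale, and genes at or past 1.5-fold or 2-fold are counted. An SD given with a ratio is the spread over probe sets, not over samples. Centred values per array are listed in the order 0, 2, 6 and 12 h, and ratios in the order 2, 6 and 12 h. For scale, the robust SD of the ratios of all genes was 0.16, 0.20 and 0.24.

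P450 enzymes oxidise drugs, steroids and fatty acids in the endoplasmic reticulum of the hepatocyte, with electrons from the P450 reductase POR. Glucuronosyltransferases, sulfotransferases and GST then join a glucuronic acid, a sulfate or a glutathione to the product, which makes it easier to excrete. In liver, many of these genes are controlled by the nuclear receptors CAR and PXR and by the aryl hydrocarbon receptor AHR, and several GST genes also by NRF2. HepG2 cells are known for low levels of many drug-metabolising P450 enzymes.

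At 12 h, some genes of the SULT and GST families and of the CYP4F group were past 1.5-fold lower. All CYP1, CYP2, CYP3 and UGT2 members stayed within 1.5-fold. With spike-in centring, described further on, CYP3A7-CYP3A51P was the exception, past it on the higher side at 0.89. Of the 67 members, 9 (13.4%) were at or past 1.5-fold lower at 12 h, where 3.7% of all genes were. They were 5 GST genes (GSTA1, GSTA3, GSTA4, GSTM2, GSTO1), 2 SULT genes (SULT1A1, SULT1C2) and the relatives CYP4F2 and CYP4F3. Past 2-fold lower were 4 members, CYP4F2, GSTA1, GSTA4 and SULT1C2 (5.97%, against 0.986% of all genes), and with spike-in centring 0 were. GSTT4 was past 1.5-fold higher, 1 of 67 (1.49%, against 4.46% of all genes), and 0 members were past 2-fold higher (0.946% of all genes), with spike-in centring 2 and 1. The shares of all genes printed so far are without spike-in centring, and none was counted with it for the higher side. The bacterial RNAs spiked in as hybridization controls lay at a median of -0.35 at 12 h, all 18 probe sets lower. Centred on them, the median of all genes becomes 0.36, and 5 of the 9 genes remain past 1.5-fold lower, all but GSTA3, GSTM2, GSTO1 and SULT1A1, against 1.16% of all genes. Directions at 12 h are therefore given with respect to the array's median gene.

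**Figure D1:**
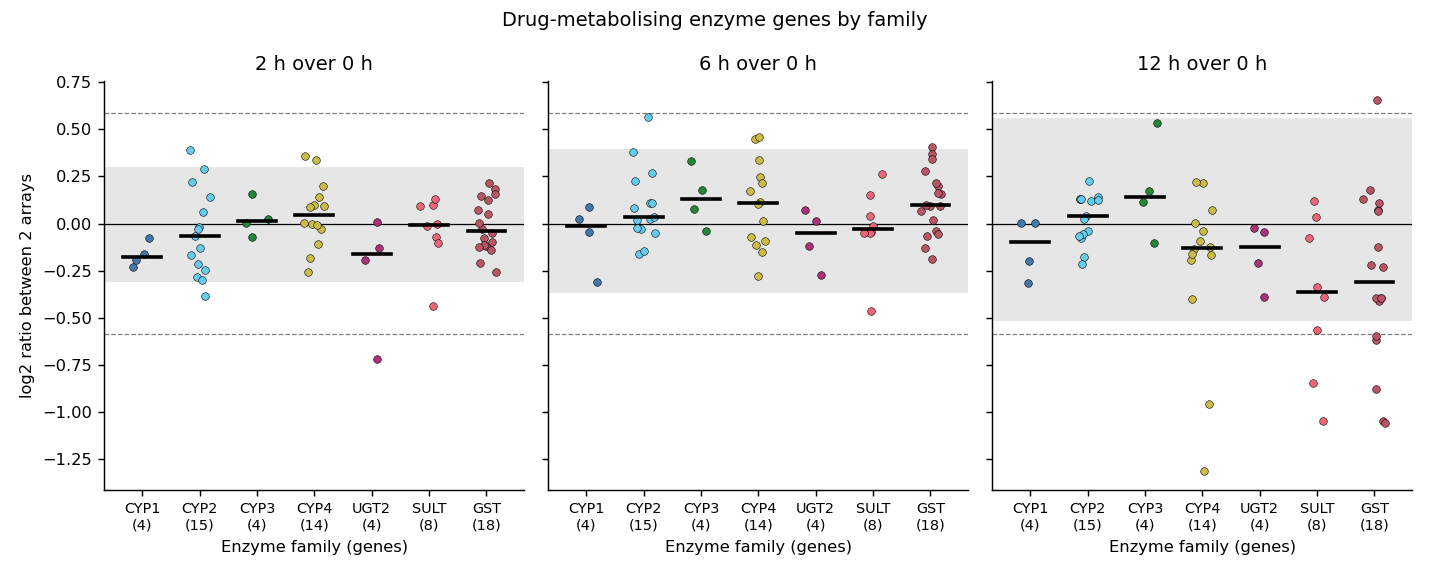
Log2 ratio of each member (point) over the 0 h array at 2, 6 and 12 h, by enzyme family with the number of genes below each name. Black bars are family medians, the grey band spans the 5th to 95th percentile of all genes, and dashed lines mark 1.5-fold. At 12 h the SULT and GST medians lie at -0.36 and -0.31, below those of the other families, and with spike-in centring at -0.0089 and 0.041.

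At 12 h the family medians were 0.14 for CYP3, 0.038 for CYP2, -0.097 for CYP1, -0.13 for UGT2, -0.13 for CYP4, -0.31 for GST and -0.36 for SULT, against 0.0100 for all genes, and with spike-in centring those of CYP1, UGT2, CYP4 and GST turn to 0.26, 0.23, 0.22 and 0.041. Spike-in centring adds the same amount to every 12 h ratio and leaves the order of the families as it was. Among the 26 SULT and GST genes, 18 were below 0 and 7 past 1.5-fold lower. Among the 27 genes of CYP1 to CYP3 and UGT2, 13 were below 0 and 0 were past 1.5-fold in either direction. Of all genes 3.7% were past it lower and 4.46% higher, so few of 27 would be past it at those shares. With spike-in centring CYP3A7-CYP3A51P was past 1.5-fold higher, at 0.89. These pools leave out CYP4 and follow which families held called genes, so the contrast between them is a description and no support. Over all members 41 of 67 (61.2%) were below 0, against 47.7% of all genes. When _x_at and _s_at probe sets, which may bind more than 1 transcript, were left out, the CYP3 and UGT2 medians changed side, to -0.073 and 0.14.

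Earlier in the course the members lay close to the array as a whole. At 2 h UGT2A3 was past 1.5-fold lower, 1 of 67 (1.49%, against 0.344% of all genes), and 0 members were higher (0.308%). At 6 h 0 members were past 1.5-fold in either direction, where 1.15% of all genes were higher and 1.64% lower. Below 0 were 38 members (56.7%) at 2 h, where 45.9% of all genes were, and 25 (37.3%) at 6 h, where 39.7% of all genes were. The median over the members was -0.027, 0.065 and -0.076 in time order, against 0.016, 0.047 and 0.0100 for all genes.

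More members were past 1.5-fold between the last pair of times than between the pair before. From 6 to 12 h, 47 members (70.1%) were below 0, where 54.3% of all genes were, and 13 (19.4%) were past 1.5-fold lower, where 3.4% of all genes were. No member was past 1.5-fold higher in this step (3.51% of all genes) or past 2-fold higher (0.799%), and 4 were past 2-fold lower (5.97%, against 0.885%), CYP4F2, CYP4F3, GSTA1 and SULT1C2. With spike-in centring 7 members were past 1.5-fold higher and 4 lower. The share of all genes was not counted with that centring, so the 3.51% and 3.4% cannot be set beside these counts. The 13 included 8 of the 9 genes lower at 12 h over 0 h, all but GSTM2, which lay at -0.55, but both comparisons use the 12 h array. The other 5 were SULT2A1 at -0.72, CYP2W1 at -0.64, GSTM1 at -0.63, CYP4F12 at -0.61 and GSTK1 at -0.60. From 2 to 6 h, CYP4X1 at 0.72 and UGT2A3 at 0.79 were past 1.5-fold higher (2.99%, against 1.57% of all genes), 0 were lower (2.07%) and 25 were below 0 (37.3%, against 42.8%).

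**Figure D2:**
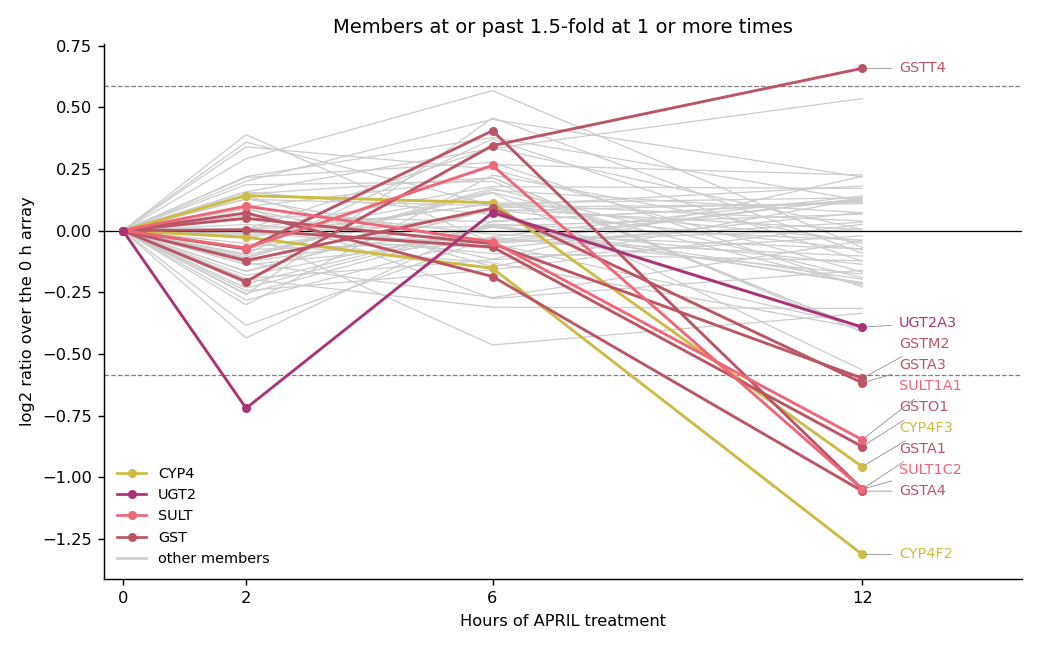
Log2 ratio over the 0 h array against hours of APRIL for the 11 members at or past 1.5-fold at 1 or more times (coloured by family, named at right), with the other members in grey and dashed lines at 1.5-fold. Apart from UGT2A3 the coloured genes lie within 1.5-fold at 2 and 6 h, and CYP4F2 is lowest at 12 h at -1.31 (-0.96 with spike-in centring).

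CYP1 enzymes, the classical targets of AHR, stayed within 1.5-fold throughout. CYP1A1, which oxidises polycyclic aromatic hydrocarbons, had centred log2 values of 0.099, -0.13, 0.12 and -0.099, a 12 h ratio of -0.20. The 2 h and 12 h arrays were the lower pair. CYP1A2, the caffeine-oxidising enzyme, had ratios of -0.20, -0.31 and -0.32 (SD 0.32 over 2 probe sets at 12 h). CYP1B1, which hydroxylates oestradiol, had ratios of -0.078, -0.044 and 0.0043 (SD 0.15 over 4 probe sets at 12 h), and its antisense gene CYP1B1-AS1 of -0.16, 0.087 and 0.0039. All 4 CYP1 ratios were below 0 at 2 h, with a median of -0.18, and 0 were past 1.5-fold.

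The 15 CYP2 genes, which include many of the drug oxidases of liver, ranged from -0.22 for CYP2D6 to 0.23 for CYP2S1 at 12 h. CYP2E1, which oxidises ethanol and paracetamol, is read by 4 probe sets that lay together, with a 12 h ratio of 0.13 (SD 0.071 over 4 probe sets, all above 0). CYP2D6, which activates codeine, had 1 probe set at -0.43 and 1 at 0 at 12 h. The nicotine oxidase CYP2A6 had ratios of -0.22, 0.026 and -0.039, and its relative CYP2A7 of -0.019, 0.11 and 0.038. CYP2B6, a CAR target that oxidises bupropion, was the lowest CYP2 gene at 2 h, at -0.38, and lay at -0.18 at 12 h. CYP2C8, which oxidises paclitaxel, had a 12 h value of 0.14 from probe sets at 0.50 and -0.22.

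Other CYP2 genes act on internal substrates or outside the liver. CYP2J2, which makes epoxides of arachidonic acid, was the lowest of the family at 6 h, at -0.16, and lay at 0.025 at 12 h. CYP2R1, the vitamin D hydroxylase, had ratios of 0.14, -0.15 and 0.13 (SD 0.22 over 3 probe sets at 12 h). CYP2A13, an enzyme of the airways, was the highest of the family at 2 h, at 0.39, and lay at 0.13 at 12 h. CYP2W1, known from colon tumours, had centred values of -0.15, 0.15, 0.42 and -0.21 on its 1 probe set, highest on the 6 h array. Its 6 h ratio of 0.57 was the highest of all members at that time, and its 12 h ratio was -0.068. CYP2F1, CYP2U1 and the pseudogenes CYP2B7P and CYP2A7P1 lay at -0.053, 0.12, -0.076 and 0.12 at 12 h.

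CYP3A4, the most abundant drug oxidase of adult liver, had ratios of -0.072, 0.080 and 0.11. Its 5 probe sets disagreed at 12 h, from -0.54 to 0.67 (SD 0.49 over 5 probe sets), with 3 above and 2 below 0. CYP3A5 was at -0.10 (SD 0.15 over 4 probe sets) and CYP3A43 at 0.17 (SD 0.24 over 4 probe sets) at 12 h. The highest was the entry CYP3A7-CYP3A51P, a readthrough over the fetal-liver gene CYP3A7, with centred values of -0.24, -0.088, 0.088 and 0.29. Each of its later arrays was higher than the one before, and the 12 h ratio was 0.53 (0.89 with spike-in centring, past 1.5-fold higher), from a single _x_at probe set.

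In CYP4, whose enzymes hydroxylate the end of fatty acid chains, CYP4F2 and CYP4F3 were lower at 12 h than their relatives. CYP4F2, which acts on arachidonic acid and vitamin K, had centred values of 0.090, 0.063, -0.063 and -1.22. Its 12 h ratio of -1.31 (2.49-fold lower) was the lowest of all members and ranked 85 from the bottom of 19775 genes. CYP4F3, which inactivates the neutrophil attractant leukotriene B4, had centred values of -0.056, 0.085, 0.056 and -1.01, a 12 h ratio of -0.96 (1.94-fold lower). Both lay apart on the 12 h array and not on the others. Each rests on 1 probe set, that of CYP4F2 being an _x_at set, so the readings of these close relatives may not be separate.

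The other CYP4F genes were nearer to 0. CYP4F12 was at -0.40 at 12 h, CYP4F8 at -0.19, CYP4F11 at -0.17, the pseudogene CYP4F30P at 0.073 and CYP4F22, an enzyme of skin lipid synthesis, at 0.0048. The pseudogene CYP4F62P was the highest CYP4 entry at 2 h, at 0.36, and lay at -0.040 at 12 h. Outside CYP4F no CYP4 gene was past 1.5-fold over 0 h, and the 6 genes ranged from -0.16 for CYP4V2 to 0.22 for the pseudogene CYP4Z2P at 12 h. CYP4A11, a fatty acid hydroxylase under PPARA, was at -0.14 with probe sets at -0.42 and 0.14. CYP4V2, whose loss causes a retinal dystrophy, was the lowest of the family at 6 h, at -0.28, and its 4 probe sets were all below 0 at 12 h. CYP4X1, read by 1 probe set, was the lowest of the family at 2 h and the highest at 6 h, with ratios of -0.26, 0.46 and -0.092. CYP4B1 and CYP4Z1 were at 0.22 and -0.12 at 12 h.

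Of the UGT2 genes, UGT2A3, a bile acid glucuronosyltransferase, had centred values of 0.20, -0.52, 0.27 and -0.20. The 2 h array was the lowest of the 4, which gives ratios of -0.72, 0.073 and -0.39 from a single _x_at probe set. UGT2B15 and UGT2B17, which inactivate androgens, were at -0.21 (SD 0.33 over 3 probe sets) and -0.021 at 12 h, with UGT2B15 the highest of the family at 2 h, at 0.0095. UGT2B28 was the lowest at 6 h, at -0.27, and lay at -0.043 at 12 h. The gene that the rule leaves out, UGT2B4, was at 0.23, 0.40 and 2.36 on 1 probe set, so the account of UGT2 holds for these 4 genes and not for the whole family.

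Among the sulfotransferases, SULT1C2 was the lowest at 12 h, but its probe sets disagreed in size. Both _s_at probe sets were far below 0, at -2.10 and -1.84, while the others were at -0.16 and -0.26, and the gene value was -1.05 (SD 1.02 over 4 probe sets, 2.07-fold lower). All 4 probe sets were below 0 at 12 h and above 0 at 6 h. SULT1A1, the main phenol sulfotransferase of liver, showed a similar split, with both _x_at probe sets at -0.85 and -0.89 and the other at 0.21, a gene value of -0.85 (SD 0.63 over 3 probe sets). With spike-in centring SULT1A1 is at -0.50 at 12 h, within 1.5-fold. With _x_at and _s_at probe sets left out, SULT1A1 is at 0.21 and SULT1C2 at -0.21 at 12 h. Both calls therefore rest on probe sets that may bind related transcripts.

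The steroid sulfotransferases were read more evenly. SULT2A1, which sulfates dehydroepiandrosterone and bile acids, had 12 h ratios of -0.57 and -0.56 on its probe sets, just short of 1.5-fold lower. SULT1E1, the oestrogen sulfotransferase, was the highest of the family at 2 h, at 0.13, and lay at -0.39 at 12 h (SD 0.043 over 2 probe sets). SULT2B1, which sulfates cholesterol, was at -0.075 and the brain enzyme SULT4A1 at 0.034 at 12 h. SULT1B1, which acts on thyroid hormones, was the lowest of the family at 2 h, at -0.44, and the highest at 12 h, at 0.12. SULT1C4 was the lowest at 6 h, at -0.46, and lay at -0.34 at 12 h.

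**Figure D3:**
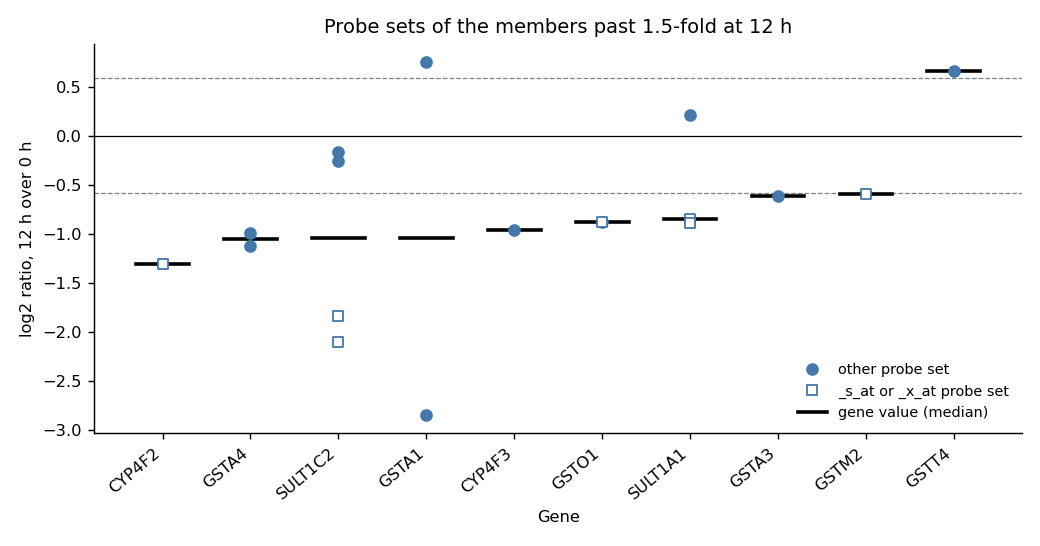
Log2 ratio at 12 h over 0 h of every probe set behind the 10 members past 1.5-fold at 12 h, with _s_at and _x_at probe sets as open squares, other probe sets as filled circles and the gene value as a bar. Probe sets of GSTA4 and GSTO1 lie together past 1.5-fold lower, while those of GSTA1, SULT1C2 and SULT1A1 lie far apart. With spike-in centring, not drawn, the GSTO1 gene value is -0.52, within 1.5-fold.

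In the alpha class of GST, the main class of normal hepatocytes, all 3 genes read were past 1.5-fold lower at 12 h (class median -1.05, and -0.70 with spike-in centring). GSTA4, which clears the lipid peroxidation product hydroxynonenal, had centred values of 0.035, -0.035, 0.14 and -0.95 on 1 probe set and 0.24, 0.45, -0.24 and -0.89 on the other. The 12 h array was the lowest in both. The gene value was -1.06 (SD 0.095 over 2 probe sets, 2.08-fold lower). GSTA1, which conjugates busulfan, gave opposite readings. On 1 probe set its centred values were 0.15, -0.15, 0.37 and -2.70, a 12 h ratio of -2.85, and on the other -0.37, -0.22, 0.22 and 0.39, a ratio of 0.76. The gene value of -1.05 is their midpoint (SD 2.55 over 2 probe sets), so the call of GSTA1 rests on 1 of its probe sets. GSTA3, which also isomerises steroids, had centred values of 0.061, -0.061, 0.15 and -0.56, a ratio of -0.62 (-0.27 with spike-in centring, within 1.5-fold).

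Of the mu class, GSTM2 had centred values of 0.027, 0.076, -0.027 and -0.57, a 12 h ratio of -0.60, and GSTM1 was at -0.41 (SD 0.14 over 2 probe sets), both from _x_at probe sets of a cluster of closely related genes. With spike-in centring GSTM2 is at -0.25 at 12 h, within 1.5-fold. GSTM4 was the highest of all GST genes at 2 h, at 0.22, and lay at -0.23 at 12 h (SD 0.072 over 2 probe sets). GSTM3 was at 0.072 with probe sets at 0.32 and -0.17, and GSTM5 at 0.11. The mu genes differed in sign, with 3 of 5 below 0, and the class median of -0.23 turns to 0.12 with spike-in centring.

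GSTO1, an omega-class enzyme that reduces dehydroascorbate, gave the closest pair of readings among the lower genes. Its probe sets had centred values of 0.032, 0.065, -0.032 and -0.85 and of 0.049, 0.021, -0.021 and -0.83, low on the 12 h array and near 0 on the others. The gene value was -0.88 (1.84-fold lower), and -0.52 with spike-in centring, within 1.5-fold. GSTO2, its neighbour, was at -0.40 from probe sets at -0.70 and -0.097. GSTK1, the mitochondrial and peroxisomal kappa enzyme, had ratios of 0.19, 0.20 and -0.40. GSTZ1, which isomerises maleylacetoacetate in tyrosine breakdown, had ratios of 0.16, 0.065 and -0.39.

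The pi and theta classes did not reach 1.5-fold lower. GSTP1, which is scarce in normal hepatocytes, had centred values of 0.048, -0.048, 0.42 and -0.076, highest on the 6 h array. Its 6 h ratio of 0.37 came next in the family after GSTA1 at 0.40, and its 12 h ratio was -0.12. GSTT1, which acts on small halogenated hydrocarbons, had ratios of 0.13, 0.10 and 0.18 (SD 0.019 over 2 probe sets at 12 h). GSTT2, listed as a pseudogene by RefSeq, was the lowest of the family at 2 h, at -0.26, and lay at 0.066 at 12 h. GSTT4 had centred values of -0.17, -0.38, 0.17 and 0.49, and its 12 h ratio of 0.66 was the highest of all members (1.01 with spike-in centring). GSTCD, which carries a GST-like domain, and its antisense gene GSTCD-AS1 were at 0.13 and -0.22 at 12 h.

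**Figure D4:**
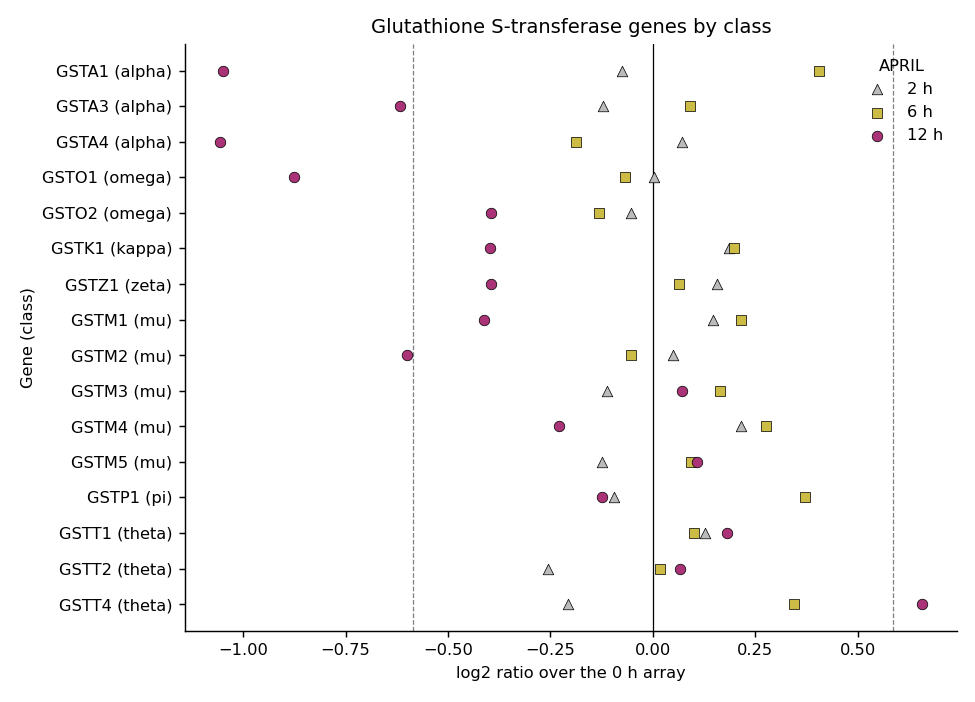
Log2 ratio over the 0 h array of the 16 GST enzyme genes, by class, at 2 h (triangles), 6 h (squares) and 12 h (circles), with dashed lines at 1.5-fold. At 12 h the alpha, omega, kappa and zeta genes lie between -1.06 and -0.39 and the 3 theta genes above 0, while with spike-in centring GSTO2, GSTK1 and GSTZ1 lie at -0.043, -0.044 and -0.042.

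In the RefSeq order the members formed 15 runs of 2 or more genes with at most 5 other genes between neighbours. The run of GSTA1, GSTA3 and GSTA4 was the only one of the 15 with all of its genes past 1.5-fold lower at 12 h. With spike-in centring it is not, since GSTA3 is then at -0.27. The GSTA1 value is the midpoint of probe sets at -2.85 and 0.76. Without spike-in centring, the runs of CYP4F2 and CYP4F11, of SULT1C2 and SULT1C4 and of GSTO1 and GSTO2 had both genes below 0, with 1 past 1.5-fold lower each. In the largest run, 8 genes from CYP2A6 to CYP2S1, 4 were below 0 and ratios ranged from -0.18 to 0.23.

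Promoters of 51 members are in the RefSeq table of GRCh38.p14, and the 250 bases before the start were searched on both strands for the core of the antioxidant response element through which NRF2 acts (TGACNNNGC), the core of the element bound by AHR (GCGTG) and the TATA box (TATAAA). The antioxidant core was in 10 of the 51 (19.6%), against 10.9% of 35116 promoter windows of all genes. For each motif a member was counted if any of its windows matched, while the share beside it counts each window once. A member with several windows has more chances, so these percentages differ in unit and are not strictly comparable. It was in 3 of the 8 promoters at hand of the genes lower at 12 h, those of GSTA4, GSTO1 and SULT1C2, and also in that of GSTP1. The AHR core was in 13 (25.5%), against 32.2% of all windows, CYP1A1 among them and 0 of the 8. TATAAA was in 18 (35.3%), against 10.7%, and 11 of these 18 were CYP1, CYP2 or CYP3 genes. A match is a string of letters, not a site. The windows are shown because they carry these matches in genes named above. They run 5′ to 3′ on the gene's strand and end 1 base before the start, with capitals marking the antioxidant core in the first 4, the AHR core in CYP1A1 and the TATA box in GSTA1.
GSTA4, chr6:52995285-52995534, minus strand: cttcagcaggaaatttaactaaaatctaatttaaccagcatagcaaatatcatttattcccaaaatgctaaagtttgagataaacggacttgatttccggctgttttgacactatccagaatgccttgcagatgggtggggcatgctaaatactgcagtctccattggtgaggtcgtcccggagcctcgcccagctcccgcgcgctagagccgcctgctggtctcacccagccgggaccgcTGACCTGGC
GSTO1, chr10:104254642-104254891, plus strand: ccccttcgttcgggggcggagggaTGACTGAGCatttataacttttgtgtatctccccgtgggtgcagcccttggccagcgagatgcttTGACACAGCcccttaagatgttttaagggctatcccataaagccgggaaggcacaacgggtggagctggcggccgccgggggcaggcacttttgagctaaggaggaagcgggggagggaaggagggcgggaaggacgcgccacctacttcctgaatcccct
SULT1C2, chr2:108288645-108288894, plus strand: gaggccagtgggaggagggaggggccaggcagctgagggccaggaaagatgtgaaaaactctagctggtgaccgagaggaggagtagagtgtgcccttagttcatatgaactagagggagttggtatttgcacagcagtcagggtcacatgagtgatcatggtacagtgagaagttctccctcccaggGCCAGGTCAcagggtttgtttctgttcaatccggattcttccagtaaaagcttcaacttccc
GSTP1, chr11:67583562-67583811, plus strand: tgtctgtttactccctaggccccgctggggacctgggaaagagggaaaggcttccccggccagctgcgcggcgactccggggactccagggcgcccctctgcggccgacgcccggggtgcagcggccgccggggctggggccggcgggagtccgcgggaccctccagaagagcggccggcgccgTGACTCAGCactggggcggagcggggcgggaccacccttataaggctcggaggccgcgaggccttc
CYP1A1, chr15:74725529-74725778, minus strand: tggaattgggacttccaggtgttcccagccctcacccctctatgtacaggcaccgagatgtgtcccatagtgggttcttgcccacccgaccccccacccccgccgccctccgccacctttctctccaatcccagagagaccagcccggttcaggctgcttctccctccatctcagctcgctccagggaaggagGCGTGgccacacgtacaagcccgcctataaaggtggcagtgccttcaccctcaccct
GSTA1, chr6:52803817-52804066, minus strand: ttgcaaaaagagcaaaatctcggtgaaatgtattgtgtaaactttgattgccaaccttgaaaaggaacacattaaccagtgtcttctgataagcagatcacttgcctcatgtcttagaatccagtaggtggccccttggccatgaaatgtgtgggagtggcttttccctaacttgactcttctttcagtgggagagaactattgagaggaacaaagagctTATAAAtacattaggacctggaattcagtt

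In these windows the match in GSTA4 begins 9 bases before the start, those in GSTO1 at 226 and 161 bases, that in GSTP1 at 66 bases and that in CYP1A1 at 57 bases. The match in SULT1C2 is on the opposite strand, its first printed base 62 bases before the start. The TATA box of GSTA1 begins 30 bases before the start. Of the 10 genes with the antioxidant core, GSTA4, SULT1C2 and GSTO1 were at -1.06, -1.05 and -0.88 at 12 h. With spike-in centring GSTO1 is at -0.52, within 1.5-fold. The other 7 stayed within 1.5-fold, with GSTM1 at -0.41, CYP4F8 at -0.19, CYP2B6 at -0.18, CYP4F11 at -0.17, CYP4V2 at -0.16, GSTP1 at -0.12 and GSTM5 at 0.11.

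Of 20 genes listed here as regulators 16 could be read, with a 12 h median of 0.052 (0.40 with spike-in centring). Past 1.5-fold higher were 4 and lower 1, where 4.46% of all genes were higher and 3.7% lower. Whether each listed gene, THRSP among them, controls these enzymes was not tested. AHR, the receptor of the CYP1 genes, had ratios of -0.073, 0.036 and 0.98. CYP1A1 was at -0.20 at 12 h and AHRR, the AHR repressor and itself a target, at -0.29. Each of these genes rests on 1 probe set. The signs are those without spike-in centring, with which the CYP1 median turns from -0.097 to 0.26. NR0B2, the repressor SHP, was at 0.91, KEAP1, which holds NRF2 down, at 0.74 and CEBPB at 0.72, each at 12 h and on 1 probe set. NFE2L2, the gene of NRF2, was at 0.036 at 12 h (SD 0.12 over 3 probe sets). CEBPA, a transcription factor of the mature hepatocyte, had ratios of 0.34, -0.72 and -0.66 on 1 probe set. The counts of 4 higher and 1 lower are without spike-in centring. With it CEBPA would lie within 1.5-fold at 12 h, and more genes of the list would be past 1.5-fold higher. NR1I3, the receptor CAR, was at -0.37 (SD 0.14 over 2 probe sets) at 12 h. NR1I2 and HNF4A are not analysed here.

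Of 19 listed genes for electron transfer and cosubstrates, 16 were read, with a 12 h median of -0.14 (0.21 with spike-in centring). Past 1.5-fold higher was 1 and lower 2, beside the same 4.46% and 3.7% of all genes. Here too the counts are without spike-in centring. POR had ratios of 0.28, 0.14 and 0.63. HMOX1, which breaks down heme, the cofactor of P450 enzymes, was at -1.47 at 12 h and CYB5B, a cytochrome b5, at -0.79 (SD 0.18 over 4 probe sets). Of the glutathione synthesis genes, GSS was at -0.51 and GCLC at 0.21 at 12 h, the probe sets of GCLC spanning -1.04 to 0.28. GCLM was at 0.029 (SD 0.33 over 3 probe sets).

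Of 44 other drug-metabolising enzymes 40 were read, and at 12 h 28 were below 0, with a median of -0.13 (0.22 with spike-in centring), 6 past 1.5-fold lower and 1 higher. Of all genes 47.7% were below 0, 3.7% past 1.5-fold lower and 4.46% higher. The lower genes included the alcohol dehydrogenases ADH5 at -0.96, ADH6 at -0.79 and ADH4 at -0.77, the last with probe sets from -2.34 to 0.20. The membrane-bound GST MGST1 was at -0.69 (SD 0.39 over 5 probe sets, all below 0), the aldehyde reductase AKR7A3 at -0.61 and the epoxide hydrolase EPHX2 at -0.60. ADH1A was higher, at 1.12 on 1 probe set. Apart from the bracketed median, all values of this paragraph are without spike-in centring. With it, only ADH5 of the 6 would remain past 1.5-fold lower at 12 h. ADH6, ADH4, MGST1, AKR7A3 and EPHX2 would then lie within 1.5-fold, and further enzymes would join ADH1A on the higher side. NQO1 was at -0.094 (SD 0.13 over 3 probe sets). At 6 h AKR1B10 was past 1.5-fold higher, at 0.63 on 1 probe set, and FMO5 lower, at -0.63. These were 1 of the 40 in each direction, where 1.15% of all genes were higher and 1.64% lower at 6 h.

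The values cannot check the cell type, since they hold no level. The hepatocyte markers ALB, APOA1, TTR, SERPINA1 and TF lay between -0.17 and 0.46 at 12 h, AFP at 0.10 and GPC3 at -0.72 with probe sets in both directions. Of the 10 markers of immune cells, fibroblasts and endothelium none was past 1.5-fold at any time.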

How the data were processed

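Total RNA of HepG2 cells was hybridised to U133 Plus 2.0 arrays of Affymetrix, 1 array per time. The deposited log2 values come from RMA, per the submitters' processing notes, and each probe set's median over the 4 arrays is 0 within 1e-06. The sources used here do not give the centring step. Base 2 and a higher value as more transcript were assumed, since neither is stated. The column medians were -0.0050, 0, 0.011 and -0.0043 at 0, 2, 6 and 12 h.

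Of 54675 probe sets, 41091 had exactly 1 symbol in the platform annotation, updated by gene identifier to RefSeq of GRCh38.p14. Array differences were computed per probe set (Python 3.11.15, pandas 2.3.3) and summarised per gene by the median, a step tested on simulated data. Members and lists were chosen with earlier results of these data known. Genes named were those past 1.5-fold at any time, the highest and lowest of each family at each time, and textbook enzymes, with the remaining members given briefly. Only 4 arrays limit the precision. Alternatives were other centrings, probe set rules, baselines, thresholds, member sets and symbols.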

Additional observations from a re-analysis of the deposited data

Results flagged for a closer look

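Outside the gene values, 13 probe sets carry several symbols with a member family among them, and no gene is named from them. At 12 h over 0 h, 3 of these were past 1.5-fold lower, at -0.996, -0.87 and -0.79. On the higher side 1 was past it, at 0.87. The share of all probe sets past 1.5-fold was not counted, so these counts have no background beside them. They were taken without spike-in centring. The spike-ins had a median of -0.35 on that array, and centring on them raises every 12 h ratio by the same amount. On that scale the probe sets at -0.87 and -0.79 would lie within 1.5-fold and that at -0.996 past it. More probe sets would be past 1.5-fold higher. None of the 13 was past 1.5-fold at 2 or 6 h.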

How the results depend on the processing

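No paired analysis was possible because each time has 1 array. Centring each array on its median, platform symbols as given, the mean over probe sets and leaving out pseudogenes, antisense genes and GSTCD moved no count of members beyond 1.5 times, though with the mean over probe sets SULT1A1 was no longer past 1.5-fold lower at 12 h. Centring on the bacterial spike-ins left 2 members past 1.5-fold higher and 5 lower at 12 h, 1 past 2-fold higher and 0 lower, and from 6 to 12 h 7 higher and 4 lower. Of the shares of all genes beside these counts, only that past 1.5-fold lower at 12 h, 1.16%, was taken with this centring. The 12 h medians became 0.26 for CYP1, 0.39 for CYP2, 0.49 for CYP3, 0.22 for CYP4, 0.23 for UGT2, -0.0089 for SULT, 0.041 for GST, 0.40 for regulators, 0.21 for electron donors and cosubstrates and 0.22 for other drug-metabolising enzymes. Without _x_at and _s_at probe sets 50 members were read. Past 1.5-fold lower were then 0 members at 2 h and 5 at 12 h, where 3.92% of all genes were lower at 12 h. Past 2-fold lower at 12 h were 2. From 2 to 6 h 1 was past 1.5-fold higher, and from 6 to 12 h 8 were lower. No share of all genes was counted for the rest of these counts. SULT1A1 reversed to 0.21 at 12 h, and medians were 0.15 for SULT at 6 h and, at 12 h, -0.073 for CYP3, 0.14 for UGT2 and -0.37 for electron donors and cosubstrates. Taking each gene's most variable probe set, 1 member was past 1.5-fold higher at 6 h and 2 at 12 h, 4 were higher and 2 lower from 2 to 6 h, and medians were 0.22 for CYP2 at 6 h and, at 12 h, 0.53 for CYP3 and -0.55 for electron donors and cosubstrates. By this probe set rule the 9 genes stayed past 1.5-fold lower at 12 h and GSTO2 joined them, where 8.08% of all genes were. No share of all genes was counted for its other counts. Against the mean of the other 3 arrays 2 members were past 1.5-fold higher at 6 h. A threshold of 1.5-fold in place of 2-fold gave 1 member lower at 2 h, and for 12 h 9 lower and 1 higher. At 3-fold 0 were lower at 12 h. Of the 9 genes lower at 12 h, CYP4F3 and GSTA4 stayed past 1.5-fold under all 8 alternatives other than thresholds. For CYP4F3, with 1 probe set, the probe set rules change nothing by construction. GSTA1 stayed too, but its probe sets lie on opposite sides of 0 and no probe set rule used could leave out the lower one. The cause was not tested where spike-ins were used. With the other probe set rules, other probe sets enter by construction. Centred values hold no signal over background.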
